A study of Mus musculus with 2 samples.

Results

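Notch receptors, their Jagged and Delta-like ligands and the Hes and Hey genes that the pathway induces were followed through the cells of the newborn mouse molar germ. The 10 genes were chosen by symbol, as Notch1, Notch2, Notch3, Jag1, Jag2, Dll1, Dll4, Hes1, Hey1 and Heyl, out of 31253 genes in the files. All 10 were found in both libraries. The germs came from the mandible's first molar of newborn mice on a C57black/B6 background. Edarfl/fl mice, whose Edar gene is flanked by loxP sites, were the control with 1 library. K14cre;Edarfl/fl mice carry the same floxed alleles and a Cre recombinase driven by the keratin 14 promoter, active in epithelium, and gave 1 deletion library. Edar is the epithelial receptor of ectodysplasin, and the study asked about its part in the dental anomalies of hypohidrotic ectodermal dysplasia. The number of germs and mice behind each library is not given in the sources used here.

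Notch signalling passes between touching cells. A Jagged or Delta-like ligand on one cell binds a Notch receptor on its neighbour, the receptor is cut, and its freed intracellular part joins the DNA-binding protein RBPJ to switch on Hes and Hey genes, which encode transcriptional repressors. In rodent teeth the receptors have been mapped to layers beside the enamel-forming cells, and ligands to the enamel-forming cells themselves. In vessels Dll4 and Notch1 act in sprouting and arterial identity, and Notch3 is the receptor of mural cells, the pericytes and smooth muscle around the endothelium.

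Cells were captured on the BD Rhapsody system and counted as unique molecular identifiers (UMIs). The control library held 73375441 UMIs in 13990 barcodes, and the deletion library 62158879 in 16029. After filtering, 13253 and 15247 cells remained, with medians of 4444 and 3329 UMIs, and 4 barcode sequences occurred in both. Clusters named from marker genes gave 2272 control and 1890 deletion epithelium-like cells, 8478 and 10989 mesenchyme-like, 1228 and 987 endothelium-like, and 366 and 348 mural-like cells. Edar in epithelium-like cells had 34.6 counts per 1000000 UMIs (CPM) in control cells and 21.1 in the deletion library, and 1.37 and 1.44 in mesenchyme-like cells. The exons removed were not stated in the sources used here, and tags near the 3′ end may lie outside them. Levels below are CPM of the summed cells of a group with 95% counting intervals, and log2 ratios are deletion over control on CPM + 5. With 1 library in each group there is no replicate check, no test and no p-value, and every interval covers counting error only. Levels are compared between cell groups and not between genes.

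**Figure D1:**
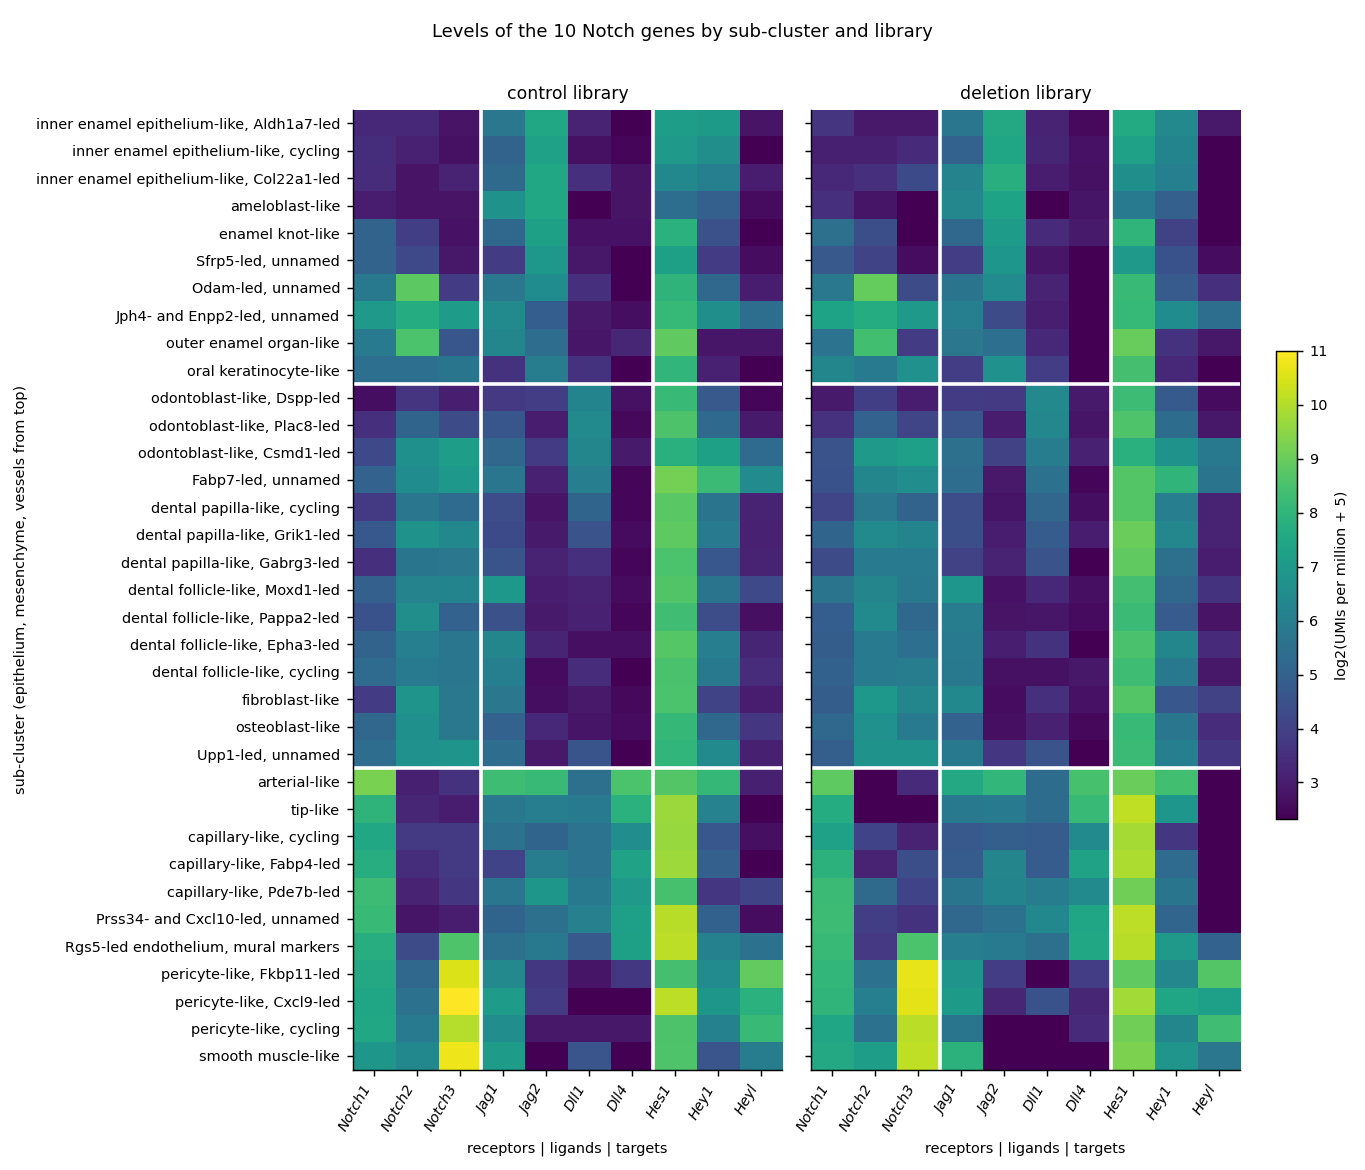
Levels of the 10 genes as log2(CPM + 5) by colour, with the control library in the left panel and the deletion library in the right; rows are sub-clusters of epithelium, mesenchyme and vessels from top to bottom, and columns are the genes grouped as receptors, ligands and targets. Notch3 is brightest in the pericyte-like and smooth muscle-like rows, Dll4 in the endothelial rows and Jag2 in the enamel-forming and arterial-like rows.

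Across the 4 classes each receptor had its own place. Notch1, a receptor used widely in development, stood at 251 CPM in control endothelium-like cells (237 to 266) and 245 in the deletion library. In mural-like cells it had 182 and 239 CPM, and in epithelium-like and mesenchyme-like cells 25.6 and 31.6, and 11.9 and 19.9. Endothelium-like and mural-like levels of Notch1 stood above those of epithelium and mesenchyme in both libraries, and their intervals overlapped each other in the deletion library. Notch2 had 78.2 and 81.3 CPM in epithelium-like cells, 46.5 and 59.2 in mesenchyme-like, 43.9 and 53.7 in mural-like and 7.43 and 10.2 in endothelium-like cells. Endothelium-like cells were thus lowest for Notch2 in both libraries. Notch3 had 1431 CPM in control mural-like cells (1367 to 1497) and 1363 in the deletion library, against 37.3 and 43.2 in mesenchyme-like and 15.3 and 18.6 in epithelium-like cells. After every cell was thinned to 2000 UMIs, 88.4% and 88.6% of mural-like cells held a Notch3 UMI, against 0.190% and 0.204% of macrophage-like cells, taken as the background of free RNA.

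The ligands were divided between classes as well. By class Jag2 was highest in epithelium-like cells, with 132 and 131 CPM against 5.14 and 3.33 in mesenchyme-like and 5.29 and 5.16 in mural-like cells. Endothelium-like cells came next for Jag2, with 70.1 and 55.9 CPM. Their arterial-like sub-cluster, described below, held up to 288 CPM. Epithelial sub-clusters of at least 50 cells in each library held at most 217. Dll4 had its place in endothelium-like cells, at 146 and 154 CPM, and stood at 6.19 or less in the other 3 classes. Dll1 had 46.2 and 33.3 CPM in mesenchyme-like and 49.3 and 46.5 in endothelium-like cells, and 3.56 and 4.81 in epithelium-like cells. Jag1 was spread over all 4 classes, from 28.3 and 37 CPM in mesenchyme-like cells to 101 and 119 in mural-like cells.

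Among the targets, Hes1 was found in all 4 classes and Heyl mainly in mural-like cells. Hes1 had 781 and 938 CPM in endothelium-like cells, 500 and 634 in mural-like, 365 and 376 in mesenchyme-like and 165 and 200 in epithelium-like cells, the same order in both libraries with no overlap of intervals. Hey1 lay between 47.2 and 112 CPM in the 4 classes. Heyl had 361 and 274 CPM in mural-like cells and 9.74 or less elsewhere in these 4 classes.

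The promoters of the members whose levels set vessels and enamel organ apart were read from RefSeq on the GRCm38.p6 assembly, the build that mm10 names. RBPJ binds GTGGGAA, and this motif was searched on both strands (GTGGGAA or TTCCCAC) in the 250 bases before each listed start. Some genes have several listed starts, and a listed start can differ from the gene's outer end in GENCODE. The windows of Jag2 and Notch1 lie inside the GENCODE span of the gene. It was found in 1779 of 32851 such windows, or 5.42%. Of the 10 genes 7 were in that table, the receptors and ligands, and 0 of the 7 held the motif. The targets Hes1, Hey1 and Heyl had no entry, so their windows were not searched. Of 40 other pathway genes 6 held it in at least 1 window. They were Hes5, Hes7 and Hey2, further genes of the Hes and Hey families, and Lfng, Psen2 and Spen. Hes6 lacked it in its windows. These are counts of genes, whereas the 5.42% is a share of windows. By class, Jag2 was highest in epithelium-like, Dll4 in endothelium-like and Notch3 in mural-like cells. Their windows are shown beside those of Hes5 and Hey2, with the motif in capitals.
Jag2 (chr12:112929496-112929745, minus strand): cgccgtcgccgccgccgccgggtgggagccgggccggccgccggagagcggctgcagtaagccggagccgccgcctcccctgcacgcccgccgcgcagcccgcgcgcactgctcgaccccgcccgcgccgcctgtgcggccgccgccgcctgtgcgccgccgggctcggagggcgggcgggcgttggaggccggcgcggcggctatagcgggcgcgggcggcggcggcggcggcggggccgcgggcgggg
Dll4 (chr2:119325534-119325783, plus strand): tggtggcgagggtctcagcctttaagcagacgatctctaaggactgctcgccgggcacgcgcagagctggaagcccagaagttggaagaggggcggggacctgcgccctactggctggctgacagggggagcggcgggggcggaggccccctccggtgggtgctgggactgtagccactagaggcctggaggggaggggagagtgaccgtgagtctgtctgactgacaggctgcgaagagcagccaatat
Notch3 (chr17:32166891-32167140, minus strand): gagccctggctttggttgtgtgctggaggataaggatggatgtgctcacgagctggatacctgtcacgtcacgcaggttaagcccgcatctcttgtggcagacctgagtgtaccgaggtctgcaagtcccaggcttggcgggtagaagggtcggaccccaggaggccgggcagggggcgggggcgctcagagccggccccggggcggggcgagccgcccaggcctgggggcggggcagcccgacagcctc
Hes5 (chr4:154960673-154960922, plus strand): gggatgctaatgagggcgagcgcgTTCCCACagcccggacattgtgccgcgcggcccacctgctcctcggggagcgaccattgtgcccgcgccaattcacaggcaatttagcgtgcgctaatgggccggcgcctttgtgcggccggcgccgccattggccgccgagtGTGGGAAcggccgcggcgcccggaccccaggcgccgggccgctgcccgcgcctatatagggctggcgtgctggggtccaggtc
Hey2 (chr10:30842784-30843033, minus strand): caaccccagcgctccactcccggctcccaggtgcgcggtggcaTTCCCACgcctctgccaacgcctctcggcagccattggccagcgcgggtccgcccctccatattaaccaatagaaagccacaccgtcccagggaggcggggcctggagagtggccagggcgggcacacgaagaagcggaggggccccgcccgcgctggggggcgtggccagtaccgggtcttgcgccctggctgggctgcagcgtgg
The letters are absent from the first 3 windows, present at 2 places in the window of Hes5 and at 1 in that of Hey2. Both genes were low here, with 14 UMIs of Hes5 and 755 of Hey2 in all kept cells. A match in a window is a description of its letters only.

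Within the enamel organ, Jag2 peaked in other clusters than the receptors did. Jag1 was highest in ameloblast-like cells, where Notch1 and Notch2 were low, but also occurred with Notch2 in outer enamel organ-like cells. The epithelium-like cells fell into sub-clusters that markers named inner enamel epithelium-like (3 sub-clusters of dividing and differentiating enamel precursors), ameloblast-like (enamel-secreting), enamel knot-like, outer enamel organ-like and oral keratinocyte-like. Another 3 of at least 50 cells in each library stayed unnamed and are called by their leading genes, Sfrp5, Odam, and Jph4 with Enpp2. Stratum intermedium, the layer beneath the ameloblasts, could not be named, because only 2 of its 8 markers, Alpl and Enpp2, were detected. Those 2 were found together in the Odam-led cells (66.6% with Alpl and 63.5% with Enpp2) and in the Jph4- and Enpp2-led cells (55.9% and 79%).

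Jag2 followed the enamel-forming lineage. In the 3 inner enamel epithelium-like sub-clusters the control held 179, 151 and 178 CPM and the deletion library 182, 169 and 217. In ameloblast-like cells it had 177 and 160 CPM, and in enamel knot-like cells 148 and 131. The lowest epithelial level was in the Jph4- and Enpp2-led cells, at 25.2 CPM in the control (15.4 to 38.9, 20 UMIs) and 15.2 in the deletion library (6.96 to 28.9, 9 UMIs). That level lay below the intervals of the 5 enamel-forming and knot sub-clusters in both libraries, while outer enamel organ-like cells, at 37.9 and 39.7 CPM, overlapped it in both. Jag1 had its highest epithelial level in ameloblast-like cells, with 102 and 76 CPM, and its interval overlapped that of the next cluster in both libraries. The Col22a1-led inner enamel epithelium-like cells held 35.1 CPM of Jag1 in the control, against 69.3 with the deletion, from 37 and 44 UMIs.

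The receptors showed the reverse arrangement. Notch1 had 122 CPM in the control Jph4- and Enpp2-led cells (99.2 to 149) and 161 in the deletion library (130 to 196), above every other epithelial sub-cluster of this size in both. In inner enamel epithelium-like cells as a whole it had 5.42 and 5.31 CPM, and in ameloblast-like cells 2.88 and 6.16, from 3 UMIs in each library. Notch3 behaved alike in the control, with 130 CPM in the Jph4- and Enpp2-led cells and 46.8 in the next, the oral keratinocyte-like cells. In the deletion library these had 122 and 99.8 CPM, and their intervals overlapped. Notch2 peaked elsewhere, at 445 and 493 CPM in the Odam-led cells, followed by outer enamel organ-like cells with 368 and 327 and Jph4- and Enpp2-led cells with 202 and 205. It had 6.3 CPM or less in inner enamel epithelium-like and ameloblast-like sub-clusters. The steps from the first to the second and from the second to the third of these Notch2 levels exceeded counting error in both libraries.

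The targets of the pathway peaked in different clusters. Heyl, at 39.1 and 38.9 CPM in the Jph4- and Enpp2-led cells, was at 6.29 or less in every other epithelial sub-cluster of at least 50 cells in each library. Hes1 was highest in outer enamel organ-like cells, at 464 and 496 CPM, had 279 and 274 in the Jph4- and Enpp2-led cells, and was lowest in ameloblast-like cells, at 39.4 and 55.4. Hey1 was shared by the Jph4- and Enpp2-led cells, with 95.8 and 87.9 CPM, the Aldh1a7-led inner enamel epithelium-like cells, with 127 and 80.8, and the cycling inner enamel epithelium-like cells, with 93.3 and 70.3. These inner enamel cells had Jag2 but little Notch1, Notch2 or Notch3. Nrarp, an RBPJ target that restrains Notch signalling, had 88.2 and 67.6 CPM in the Jph4- and Enpp2-led cells. Lfng, a Fringe enzyme that adds sugars to the receptor and was named after its values were seen, stood in enamel knot-like cells at 204 and 150 CPM, against 1.26 and 0 in the Jph4- and Enpp2-led cells.

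**Figure D2:**
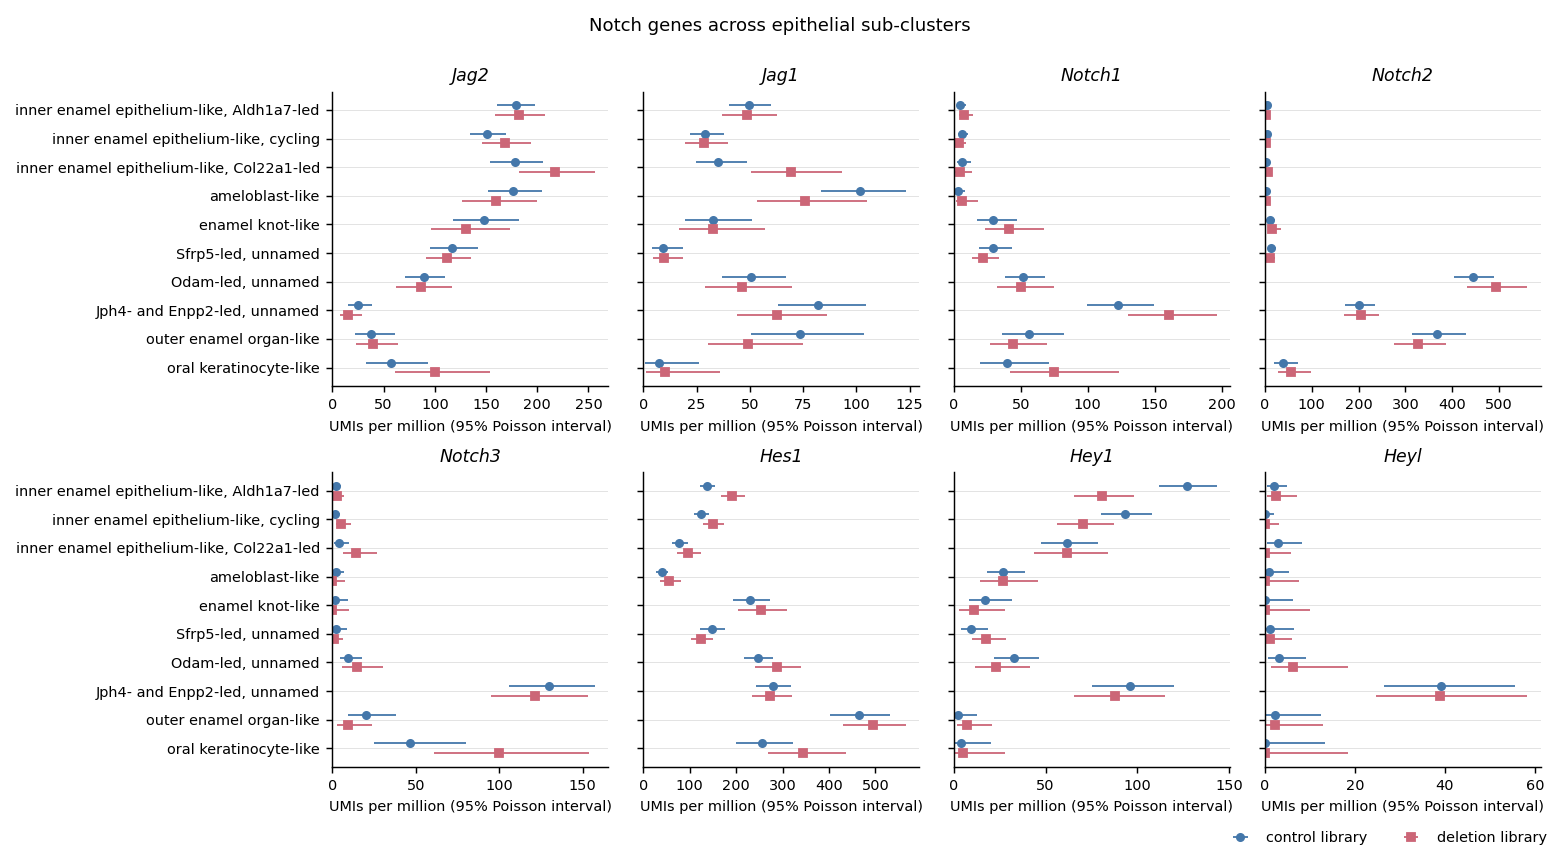
Levels of members in the epithelial sub-clusters of the control and deletion library, in CPM on the x axis with exact 95% Poisson intervals; each point is 1 library. Jag2 is high in inner enamel epithelium-like and ameloblast-like cells and low in the Jph4- and Enpp2-led cells, where Notch1 reaches 122 and 161 CPM.

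Over all epithelium-like cells, the share with both Jag2 and Notch1 lay below the product of the separate shares, unlike that of pairs with Jag1. Cells with either pair were few. Of 1986 control epithelium-like cells thinned to 2000 UMIs, 5 held both Jag2 and Notch1, or 0.252%, where the product of the separate shares is 1.14%. In the deletion library 12 of 1473 did, or 0.815%, against a product of 1.3%. Jag1 and Notch2 were found together in 1.16% and 1.29% of the same cells, against products of 1.03% and 0.975%, and Jag1 and Notch1 in 0.554% and 0.679%, against 0.462% and 0.478%. In outer enamel organ-like cells 5 of 79 control and 6 of 89 deletion cells, thinned alike, held both Jag1 and Notch2. These shares follow from the separate clusters above and add no independent evidence. Their distance from the products was not set against counting error. Within named groups the order varied for Jag2 and Notch1. Inner enamel epithelium-like cells had 0.102% and 0.613%, against products of 0.342% and 0.347%. Ameloblast-like cells had 0.49% and 1.82%, from 1 and 2 cells, against 0.447% and 0.562%. No enamel knot-like cell held both. In the Jph4- and Enpp2-led cells alone 0 of 151 and 2 of 115 held both Jag2 and Notch1, and 0 of 151 allows a share of up to 1.99%.

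In mesenchyme, Dll1 marked odontoblast-like cells. Dll1 had 74.3 CPM in control odontoblast-like cells (70.8 to 77.9) and 77.5 in the deletion library, in the Dspp-led cells 70.8 and 80.5, in the Plac8-led 81.1 and 75.1 and in the Csmd1-led 74.6 and 59. Odontoblasts make dentin, and Dspp encodes its main phosphoprotein. The unnamed Fabp7-led cells followed at 61.1 and 43.3 CPM, papilla-like sub-clusters lay between 6.39 and 31.1, and follicle-like and osteoblast-like sub-clusters at 7.19 or less. Among these groups Dll1 was thus highest in the odontoblast-like sub-clusters in both libraries. The low end of the papilla-like range overlapped the follicle-like and osteoblast-like levels.

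Jag1 had the opposite mesenchymal pattern. It had 74.6 and 76.9 CPM in dental follicle-like cells, the sac that surrounds the germ, 15.9 and 14.9 in papilla-like and 13.1 and 14.6 in odontoblast-like cells. The Moxd1-led follicle-like cells held most, with 119 and 114 CPM, above all other mesenchymal sub-clusters in both libraries. Notch2 was lowest in Dspp-led odontoblast-like cells, at 7.25 and 10.3 CPM, and reached 125 CPM in other mesenchyme. Notch1 was lowest there too, at 1.21 and 2.75 CPM, and Notch3 had 3.22 and 3.09.

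Hey1, Heyl and Notch3 were high together in the Fabp7-led and the Csmd1-led mesenchyme. The Fabp7-led cells, 684 of the control and 1132 of the deletion library, had 298 and 253 CPM of Hey1, 86.5 and 45.8 of Heyl, 118 and 90.9 of Notch3 and 575 and 405 of Hes1. The small Csmd1-led group had 149 and 103 CPM of Hey1, 35.9 and 51.6 of Heyl and 138 and 144 of Notch3, but 225 and 221 of Hes1. Hey1 in the Fabp7-led cells exceeded every other mesenchymal sub-cluster beyond counting error in both libraries. Hes1 was the highest of all mesenchyme there in the control, whereas in the deletion library the Grik1-led papilla-like cells, at 516 CPM, lay above it. Within the Fabp7-led cells 8 of the 10 genes had a ratio interval below 1, where 8.22% of all genes with at least 5 CPM did. The 6 of them with at least 50 CPM in 1 library were Heyl with a log2 ratio of -0.85 (ratio interval 0.439 to 0.638), Hes1 with -0.50, Dll1 with -0.45, Notch3 with -0.36, and Notch2 and Hey1 with -0.23 each. No member passed the 2-fold rule there (at least 50 CPM in 1 library, a 2-fold difference of CPM + 5 and a ratio interval without 1), where 0.83% of genes at that level did. The members' median was -0.41 beside 0.06 over all genes with at least 5 CPM. These differences varied between finer groups of the same cells, and the part of the mix of cells was not tested. At a finer clustering most of the sub-cluster fell into one group of 505 control and 513 deletion cells and another of 123 and 574. In the first, Heyl had 112 and 88.2 CPM and a log2 ratio of -0.33, Hes1 had -0.18 and Hey1 -0.01. In the second, Heyl had 16.5 and 7.74 CPM, from 10 and 15 UMIs and with a ratio interval of 0.197 to 1.16. Dll1 had 38.0 and 15.5 CPM there, a log2 ratio of -1.07 from 23 and 30 UMIs (ratio interval 0.229 to 0.734), against -0.04 in the first. Hes1 had a ratio of -0.53 and Hey1 -0.04 in the second. Hes1 was thus lower in the deletion library in both finer groups, whereas Hey1 lay within counting error in both. Erythroid markers summed to 273 CPM in the control's Fabp7-led cells and to 3.96 in those of the deletion library, and their part was not tested. This sub-cluster and its finer groups were singled out after their values were seen.

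**Figure D3:**
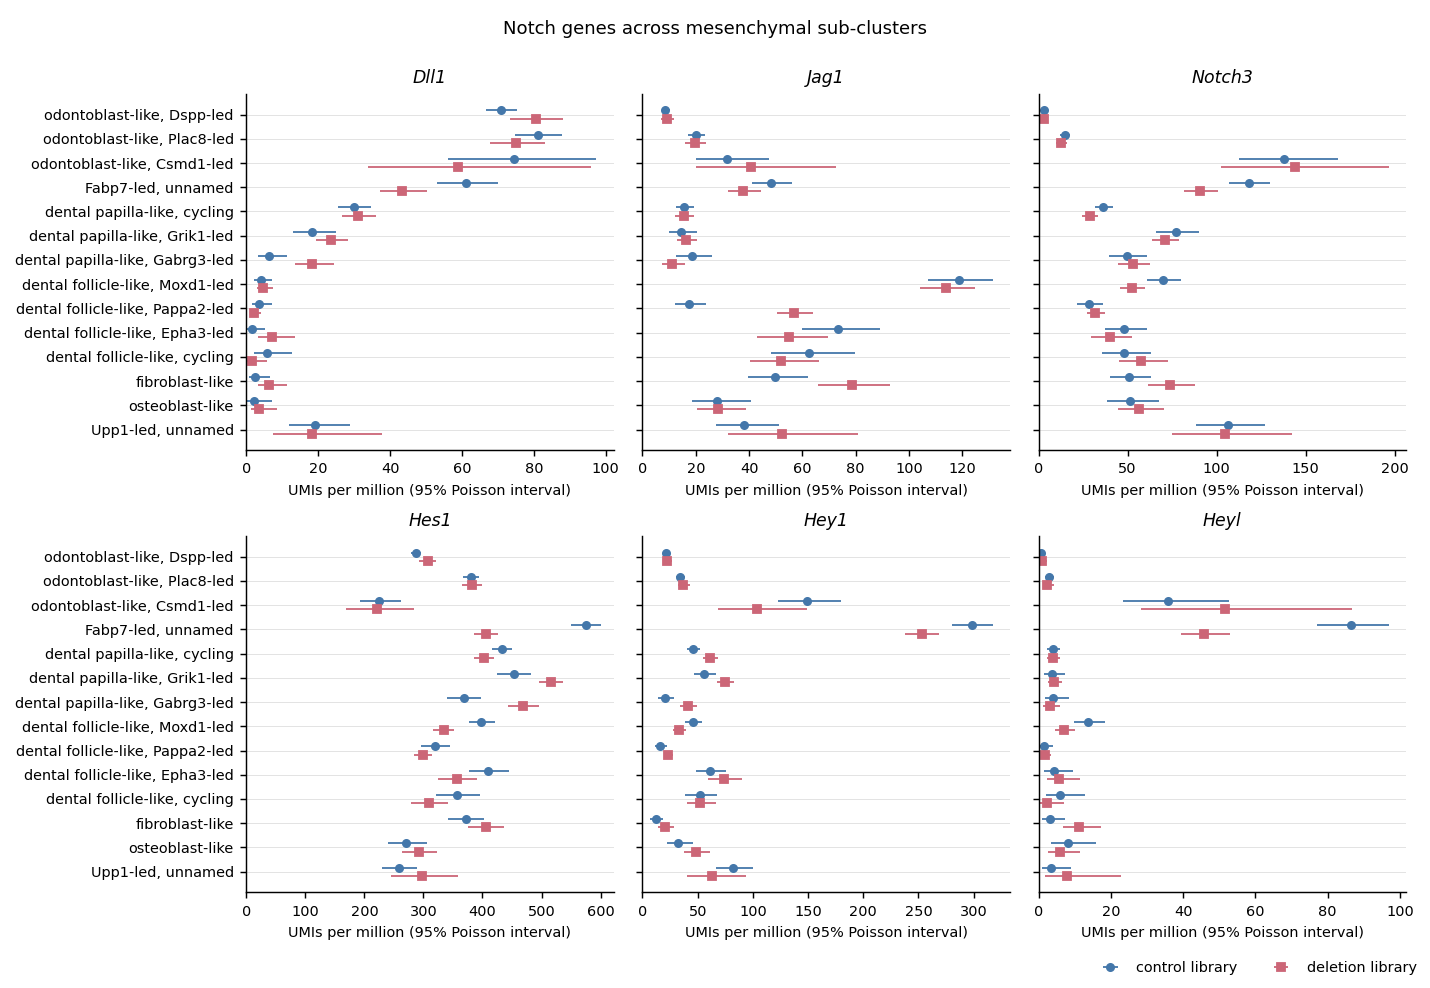
Levels of members in the mesenchymal sub-clusters of both libraries, in CPM on the x axis with exact 95% Poisson intervals; each point is 1 library. Dll1 is high in odontoblast-like cells and Jag1 in follicle-like cells, and Hey1 reaches 298 and 253 CPM in the Fabp7-led cells.

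In vessels, arterial-like cells had the most of 4 members. The 92 control and 66 deletion arterial-like cells held 607 and 454 CPM of Notch1, 308 and 182 of Jag1, 288 and 261 of Jag2, and 267 and 328 of Hey1. For Notch1, Jag2 and Hey1 each level lay above all other endothelial and mural sub-clusters of at least 50 cells in each library, beyond counting error. For Jag1 the deletion library's interval overlapped those of the Cxcl9-led and Fkbp11-led pericyte-like cells. Dll4 was shared by arterial-like cells, at 371 and 355 CPM, and tip-like cells, the sprouting front, at 229 and 291. Hes1 went the other way and had 402 and 511 CPM in arterial-like cells against 819 and 1153 in tip-like cells. Capillary-like cells held 211 and 189 CPM of Notch1 and 114 and 104 of Dll4. Dll4 and Hey1 were found together in 32 of 937 thinned control endothelium-like cells, or 3.42%, against a product of shares of 1.63%, and in 31 of 743, or 4.17%, against 2.37%, in the deletion library. In arterial-like control cells alone the share was 16.4% against a product of 15.3%, in tip-like cells 6.4% against 4.03% and, with the deletion, 5.77% against 9.36%. The class-wide share joins clusters with different levels of both genes.

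Mural-like cells carried Notch3 with Heyl. Pericyte-like cells had 1417 and 1481 CPM of Notch3 and 359 and 302 of Heyl. The smooth muscle-like cells, 17 and 24 in number, had 1735 and 1139 CPM of Notch3 but 57.8 and 49.5 of Heyl, from 3 and 4 UMIs. Both kinds of mural cell held the receptor, and Heyl was lower in the smooth muscle-like cells in both libraries. Of 275 thinned control mural-like cells 122 held both, or 44.4%, and of 236 in the deletion library 79, or 33.5%. The products of the separate shares are 43.4% and 32.6%, close to the observed values. Notch3 in endothelium-like cells came largely from 1 sub-cluster led by the mural gene Rgs5, with 386 and 364 CPM, and the other endothelial sub-clusters of at least 50 cells had 16.0 CPM or less.

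**Figure D4:**
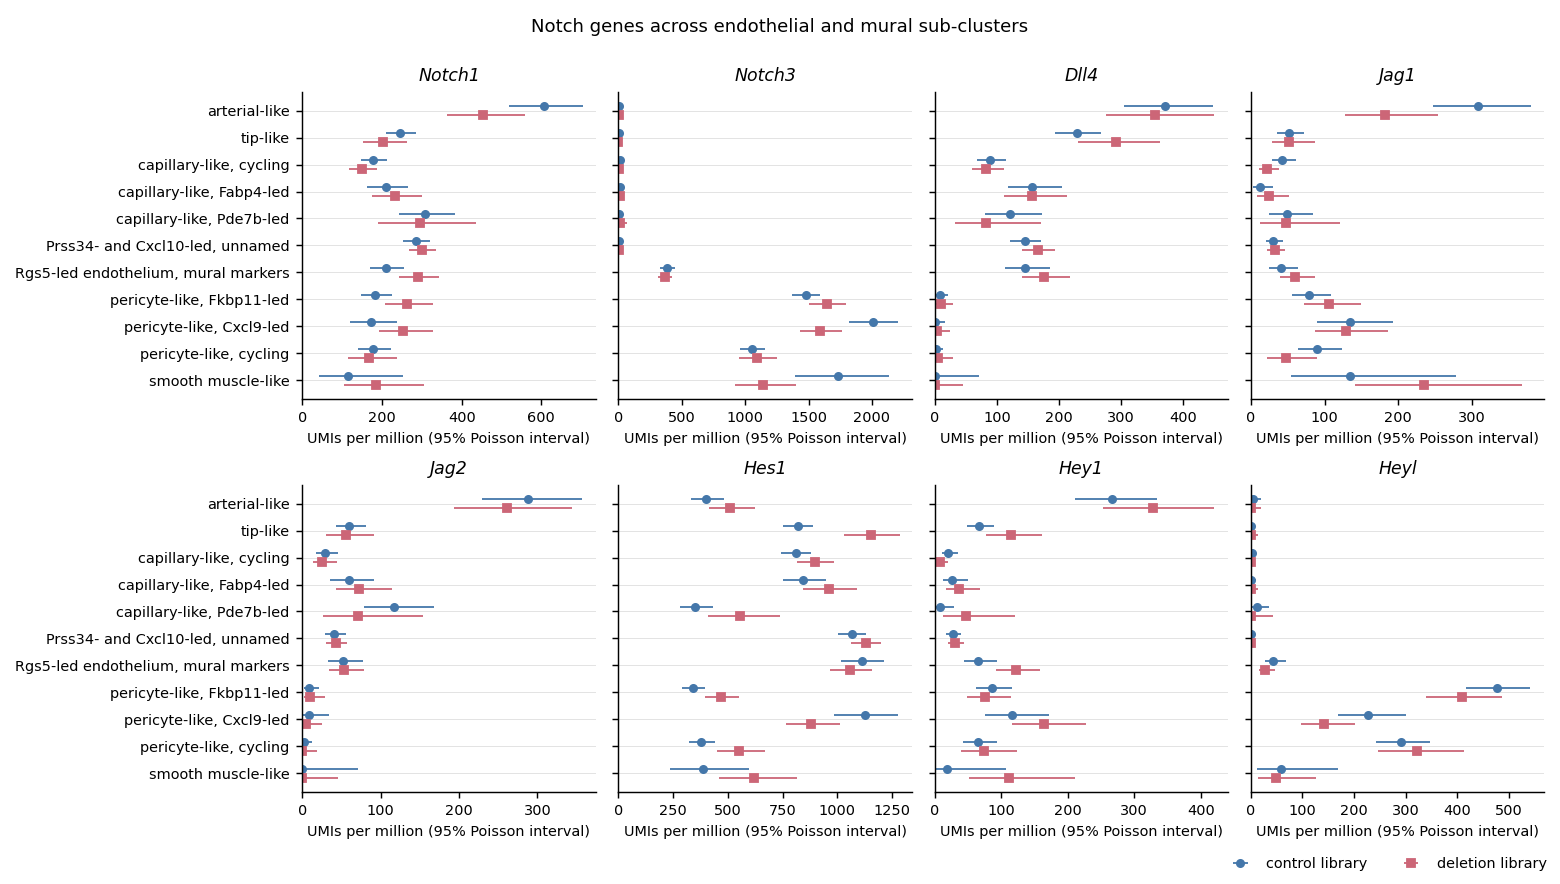
Levels of members in endothelial and mural sub-clusters of both libraries, in CPM on the x axis with exact 95% Poisson intervals; each point is 1 library. Notch1, Jag1, Jag2 and Dll4 are high in arterial-like cells, and Notch3 and Heyl in the mural groups.

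Between the libraries no member differed 2-fold in any of the 4 classes. Genes past the 2-fold rule given above are termed called. In epithelium-like cells 0 of the 10 genes were called, where 4 had the minimum level and 0.225% of 3549 genes at that level were called. In mesenchyme-like cells 0 were called and 3 had the level, against 0.49% of 3466 genes. In endothelium-like cells 0 were called and 7 had the level, against 0.302% of 3314, and in mural-like cells 0 and 7, against 0.615% of 3576. At such shares 0 of 10 is what the background gives, and it is not a result about these genes. The largest of the 40 log2 ratios was 0.56. Intervals that excluded 1 were common among all genes and are read against their share of genes with at least 5 CPM in 1 library. In epithelium-like cells 2 of 8 members at that level had an interval above 1, where 8.76% of genes did, and 1 an interval below 1, where 17.8% did. In mesenchyme-like cells 6 of 9 lay above, beside 46.7%, and 3 below, beside 20.2%. In endothelium-like cells 3 of 10 lay above, beside 7.77%, and 2 below, beside 15.6%. In mural-like cells 2 of 10 lay above, beside 6.32%, and 1 below, beside 5.03%.

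In the deletion library's epithelium, where Edar itself was lower, Hes1 was higher and Hey1 lower. Hes1 had a log2 ratio of 0.27 (ratio interval 1.13 to 1.30). It was above 0 in 8 of 10 epithelial sub-clusters of at least 50 cells in each library, with an interval above 1 in 1 of them. Higher Hes1 was not particular to epithelium, with 0.26 in endothelium-like and 0.34 in mural-like cells. Hey1 in epithelium-like cells had a log2 ratio of -0.41 (0.645 to 0.840), with 7 of 10 sub-clusters below 0, and -0.18 after thinning to 2000 UMIs. It was lowest in the Aldh1a7-led inner enamel epithelium-like cells, at -0.62, where Hes1 had 0.47. Notch1 had 0.26 (1.03 to 1.48), with 5 of 10 sub-clusters above 0, and Jag2 had -0.01 (0.910 to 1.08). The median log2 ratio was 0.10 over the 8 members with at least 5 CPM, beside -0.04 over all genes at that level. The summed level of 10 immediate early genes, which respond to cell stress and dissociation, was 1763 CPM in control and 3299 CPM in deletion epithelium-like cells. Its part in the Hes1 and Hey1 values was not tested.

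In mesenchyme the shifts of several members changed when sub-clusters were weighted equally. Notch1 had a log2 ratio of 0.56 (ratio interval 1.51 to 1.87) and was above 0 in 10 of 14 sub-clusters, with 0.61 in papilla-like, 0.30 in follicle-like and 1.02 in fibroblast-like cells. It was 0.27 when each sub-cluster was weighted equally. Dll1 had -0.42 (0.674 to 0.770) in the class but 0.06 in odontoblast-like cells, which were 3156 of 8478 mesenchyme-like cells in the control and 2102 of 10989 in the deletion library. With equal weights Dll1 stood at -0.02. Jag1 had 0.34 and Notch2 0.32, and with equal weights 0.09 and 0.03. Notch3 and Hey1, at 0.19 and 0.18, and Hes1, at 0.04, turned to -0.03, -0.01 and -0.02 with equal weights. Hes1 also turned to -0.08 with TMM scaling, an alternative scaling that here lowers the ratios of this class. The members' median was 0.18 over 9 genes, beside 0.08 over all genes, and immediate early genes summed to 7312 and 10220 CPM, whose part was not tested.

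Of the members in mesenchymal sub-clusters of at least 50 cells in each library, Jag1 in 1 follicle-like sub-cluster passed the 2-fold rule. In the Pappa2-led follicle-like cells Jag1 had 17.3 CPM in the control (12.3 to 23.8, 38 UMIs) and 57 in the deletion library (50.5 to 64.1, 279 UMIs), a log2 ratio of 1.47, where 0.864% of genes at the minimum level were called. In the same cells' finer clusters, examined after this value was seen, Jag1 stood at 24.1 and 68.4 CPM in one and at 6.15 and 20.9 in the other. Both finer clusters were therefore higher in the deletion library. In the Moxd1-led follicle-like cells Jag1 did not follow, with a log2 ratio of -0.06. Over all 35 sub-clusters of at least 50 cells in each library, 3 of 350 member values passed the rule, and 151 had the minimum level. The others were Notch3 in oral keratinocyte-like cells, from 13 and 20 UMIs and with 8.41% of genes called, and Hey1 in endothelium-like cells led by haemoglobin genes, from 6 and 21 UMIs and with 4.25% of genes called. In the 11 smaller sub-clusters 5 of 110 values passed, from groups of 4 to 46 cells, 3 of them of Hes1, which was higher in 2 and lower in 1. Lymphatic-like and venous-like cells were among these Hes1 groups, and 4.58% and 2.59% of all genes at the minimum level were called in them. For the other small groups with a passing value that share was not computed, so these counts are not a result about Hes1. Outside the 4 classes Hes1 passed the rule in neutrophil-like cells, from 3 and 22 UMIs, where 10.7% of genes at the minimum level did.

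In endothelium-like and mural-like cells as a whole Hes1 was higher in the deletion library. It had a log2 ratio of 0.26 (ratio interval 1.15 to 1.26) in endothelium-like cells. There it was above 0 in 5 of 5 sub-clusters of at least 50 cells that were not led by another class's genes. Its interval lay above 1 in 1 of these 5, and that exclusion was chosen after seeing the data. In mural-like cells it had 0.34 (1.13 to 1.42), above 0 in 2 of 3 sub-clusters, with an interval above 1 in 2. In the third, the Cxcl9-led pericyte-like cells, Hes1 was lower in the deletion library, at -0.35 (0.647 to 0.951). Hey1 had 0.40 (1.12 to 1.63) in endothelium-like cells. In mural-like cells it had 0.33, within counting error (0.969 to 1.67). Jag1 and Jag2 had -0.30 each in endothelium-like cells, with intervals of 0.647 to 0.974 and 0.667 to 0.952, but Jag1 was above 0 in 3 of those 5 endothelial sub-clusters and Jag2 in 2. Jag1 had -0.74 (0.388 to 0.884) in arterial-like cells, the 1 sub-cluster whose interval lay below 1. Heyl had -0.39 (0.651 to 0.884) in mural-like and -0.25 in pericyte-like cells, and Notch1 had 0.39 and 0.38. Notch3 had 0.34 in endothelium-like cells, 0.18 without the sub-clusters led by another class's genes, -0.002 with sub-clusters weighted equally and 0.79 after thinning. Immediate early genes summed to 5914 and 7440 CPM in endothelium-like and to 7255 and 11060 in mural-like cells. Summed haemoglobin and other erythroid markers had 15.9 and 1218 CPM in mural-like cells and 24.6 and 234 in endothelium-like cells. In pericyte-like cells alone they stood at 6.14 and 5.59 CPM. The part of the early genes and of the erythroid markers was not tested.

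**Figure D5:**
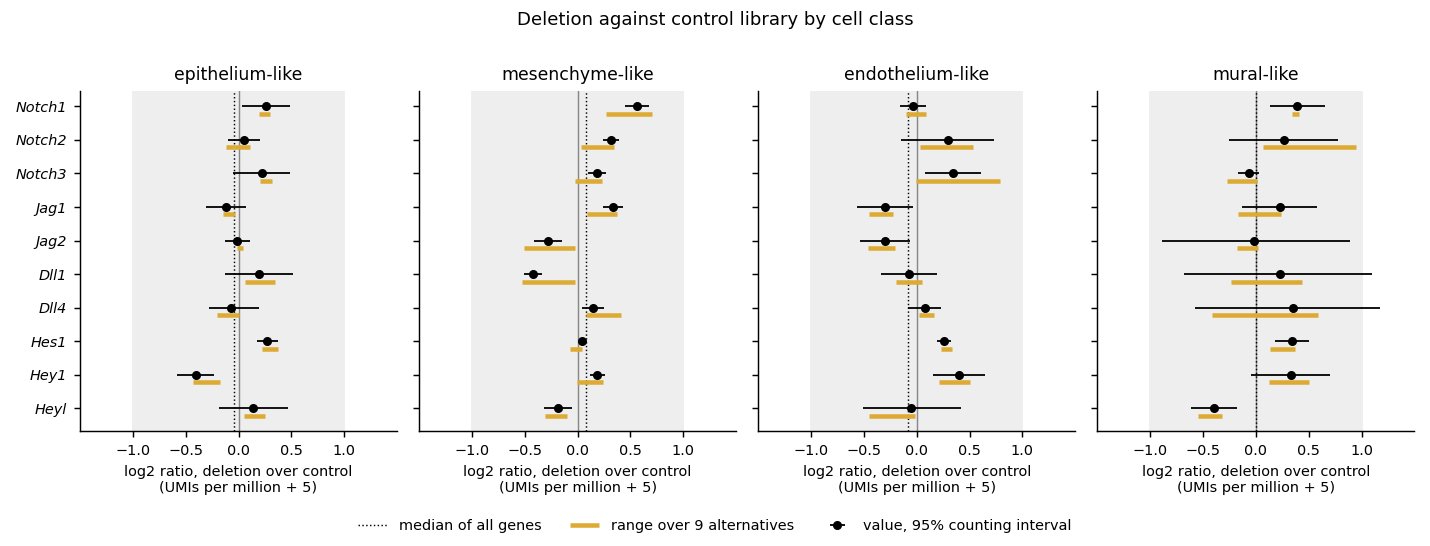
Log2 ratio of each member, deletion over control on CPM + 5, in the 4 classes, with 95% binomial intervals of the ratio of counts carried to that scale; each point is 1 comparison of 1 library with 1 library. Yellow bars give the range over 9 alternative settings, the dotted line the median of all genes and the shaded band a 2-fold difference. All 40 points lie within the band, and Hes1 lies above 0 in each class but turns to -0.08 in mesenchyme-like cells with TMM scaling and to -0.02 with sub-clusters weighted equally.

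The other genes of the pathway gave little more between the libraries. Of 49 receptors, processing enzymes, nuclear partners and regulators, 34 had at least 5 CPM in epithelium-like cells, 17 of them above and 17 below 0 with a median of 0.002. In mesenchyme-like cells 23 of 35 were above 0 with a median of 0.08, beside 0.08 over all genes, and in endothelium-like cells 12 of 37 with a median of -0.12, beside -0.08 over all genes. In mural-like cells 22 of 37 were above 0, and 1 passed the 2-fold rule, Neurl1b, a ubiquitin ligase for ligands, with 54.4 CPM from 72 UMIs in the control and 22.7 from 22 UMIs in the deletion library. Notch4, an endothelial receptor, had 122 and 95 CPM in endothelium-like cells, Mfng, a Fringe enzyme, 104 and 87.8, and Nrarp 139 and 111, each at 5 times or more its level in the remaining cells. In epithelium-like cells Psenen, a gamma-secretase subunit, had 149 and 154 CPM (ratio interval 0.955 to 1.12), and Rbpj, the DNA-binding partner, 48.6 and 41.4 (0.734 to 0.987). Rbpj was higher in the deletion library's mesenchyme-like cells, at 52.1 and 62.2 CPM (1.13 to 1.26).

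The genes most like each member in level were ranked by Pearson's r of log2(CPM + 5) over 36 points, 18 cell types in 2 libraries, which share libraries and depth, and are given as a description. Dll4 was closest to Cldn5, Sox17 and Bcl6b, with r of 0.983 for Cldn5. Heyl was closest to Sema5b (0.939), Foxs1 and Des, and Notch3 to Pdgfrb (0.891), Kcnj8 and Pde3a. Hes1 was closest to Dock1 (0.918), Jag2 to Fzd6 (0.867), Notch1 to Pde4b (0.848), Notch2 to Metrnl (0.841), Dll1 to Arhgef28 (0.83), Hey1 to Mxd4 (0.81) and Jag1 to Rnf152 (0.795). Dll4 and Heyl thus had the closest companions and Jag1, spread over all classes, the least close.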

How the data were processed

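The deposited values are whole-number counts of UMIs per gene and barcode, which the authors made with STARsolo on the mm10 build, per the submitters' processing notes. STARsolo's version, the annotation and the barcode rule were not stated in the sources used here. Gene positions come from GENCODE M21.

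Cells with at least 500 genes and at most 20% mitochondrial UMIs were kept, and Scrublet in scanpy 1.11.5 removed 178 and 240 doublets (1.33% and 1.55%). Both libraries were clustered together (2000 variable genes without Notch pathway genes, 30 components, 15 neighbours, Leiden resolution 1, then 0.6 within each class). Clusters were named from marker lists. The naming thresholds (at least 3 markers in 10% of cells, and a lead in score over the next name) were set after the clusters were seen. Different clusters held most mesenchyme-like cells in the 2 libraries.

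Raw counts were summed per cell group and library and scaled to CPM. Intervals are exact Poisson for levels, conditional binomial for ratios and Clopper-Pearson for shares, at 95%. Where a count is 0, the upper limit uses 3 counts. Cells with under 2000 UMIs (1066 and 2037) were left out of thinned shares. The 2-fold rule (at least 50 CPM, CPM + 5) was checked on simulated data, and the pass mark of that check was lowered after a first failure at the depth of small classes. TMM factors came from edgeR 4.0.16 in R 4.3.3. Alternatives were another cell filter, doublets kept, a pseudocount of 1, no minimum, TMM, equal weights, thinning and Notch genes left in clustering. Leaving out sub-clusters led by another class's markers, the immediate early gene list and the minimum of 50 cells in a sub-cluster were chosen after seeing the data.

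The 10 genes and the lists were chosen with earlier results of these data known. Every member was described. The rule for naming other pathway genes was to be past the 2-fold rule in a class, first in UMIs of their list, or above 50 CPM and 5 times the remaining cells in 1 class. Not all that met it are described. Left out were Dlk1, Poglut1, Mib1, Snw1, Dtx3, Hes6, Itch and Dtx2. Of these, Mib1 passed the 2-fold rule in neutrophil-like and Itch in glia-like cells. In those groups 10.7% and 11.9% of all genes at the minimum level passed it, so these calls are not a result about the 2 genes. Like genes were named by the 3 highest correlations among genes reaching 50 CPM.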

Additional observations from a re-analysis of the deposited data

How the results depend on the processing

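No member passed the 2-fold rule in the 4 classes under any of the 9 alternatives. The number of genes called, out of all genes, moved more. In epithelium-like cells 8 became 20 with no minimum level and 13 after thinning. In mesenchyme-like cells 17 became 31 with a pseudocount of 1, 33 with no minimum and 2 with equal weights. In endothelium-like cells 10 became 23 with no minimum, 19 after thinning and 6 without sub-clusters led by another class's markers, an alternative chosen after seeing the data. In mural-like cells 22 became 241 with no minimum, 12 with equal weights and 61 after thinning. The cause of these changes was not tested. Of the 40 member ratios, 40 stayed within their own counting interval with Notch genes in the clustering and 40 with doublets kept, but 33 with TMM, 31 after thinning and 30 with equal weights. TMM moved the median over all genes in mesenchyme-like cells from 0.08 to -0.02. Ratios near 0 changed sign under some settings, as did Jag1 in mural-like cells, from 0.23 to -0.17 after thinning. No paired analysis was possible because each group holds 1 library and nothing pairs germs. In sub-clusters of few cells, low levels rest on few UMIs, and a gene at 0 in a small sub-cluster was not detectable at this depth.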

Other observations

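Notch genes were also counted in cells outside the 4 classes, which are given as values. Neutrophil-like cells, 137 and 136 in number, held 255 and 212 CPM of Notch1 and 151 and 115 of Notch2, with no UMI of Jag2, Dll4 or Heyl in either library. In them Hes1 had 10.8 CPM from 3 UMIs in the control and 84.7 from 22 UMIs in the deletion library, where 10.7% of genes at the minimum level passed the 2-fold rule. Macrophage-like cells, 563 and 531, held 82 and 99.5 CPM of Notch1, 52.2 and 54.4 of Notch2 and 85.9 and 64.2 of Hes1, while Notch3 had 1.8 and 3.04. Rbpj, the nuclear partner of the receptors, was concentrated in macrophage-like cells, with 306 and 388 CPM. In neutrophil-like cells it had 104 and 216 CPM, from 29 and 56 UMIs, and passed the 2-fold rule. Neurl3, a ubiquitin ligase of the Neuralized family, was concentrated in macrophage-like and neutrophil-like cells, with 73.8 and 79.1 CPM in the former and 61.2 and 57.7 in the latter.

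Glia-like cells, 38 and 109, held 172 and 155 CPM of Notch1, and Hes1 stood at 1052 CPM in the control (122 UMIs) and 585 in the deletion library (230 UMIs). Osteoclast-like cells, 43 and 110, had 41.8 and 34.8 CPM of Notch2 and 19.2 CPM or less of every other member. These 2 groups were unequal in number between the libraries. In the smaller endothelial sub-clusters, the 17 and 17 lymphatic-like cells held 410 and 1289 CPM of Hes1, from 20 and 68 UMIs.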
